A study of Mus musculus with 4 samples.

Results

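The 42 genes described here are targets of type I interferon with antiviral roles, together with Ifnb1, the gene of interferon beta, and they were found by symbol in each of 4 libraries of mouse bone marrow-derived macrophages. All 42 had a row among the 23284 genes listed per library, 0 were absent, and 0 stayed under 1 FPKM (fragments per kilobase of transcript scaled to sequencing depth) in all 4 libraries. Ifnb1 and Mx2 were under 5 FPKM in both libraries made without lipopolysaccharide (LPS), so they pass a minimum of 5 FPKM in the LPS comparisons only through the library with LPS.

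The groups were control macrophages (genotype Spic+/+) and macrophages labelled Spic-/-, called knockout here. Each was cultured without LPS, or with 100 ng/ml LPS, a component of the bacterial outer membrane, for 4 h. All 4 groups, controls included, had been given hemin, an iron-containing form of heme, for 18 h beforehand. The treatment protocol gives the hemin dose as 40 µM and the sample descriptions give it as 40 mM. The titles call the knockout cells cKO. The sources used here do not give the allele, any Cre driver, the strain, or the age or number of the mice. Each group was 1 library, so no difference has a replicate check, no test was made, and "higher" and "lower" below compare libraries, not conditions.

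LPS is sensed by Toll-like receptor 4, which through the adaptor TRIF and the kinase TBK1 activates the transcription factor IRF3 and with it Ifnb1. Secreted interferon beta binds the receptor IFNAR on the same and neighbouring cells, where the kinases JAK1 and TYK2 activate the transcription factor complex ISGF3. ISGF3 binds the interferon-stimulated response element, a repeat of GAAA, and drives antiviral genes that sense viral RNA, degrade it, block its translation or tag proteins with the ubiquitin-like protein ISG15. Spic encodes Spi-C, an Ets family factor related to PU.1 and known for its role in macrophages that handle heme.

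The promoter sequences are shown because the members other than Ifnb1 were listed as targets of type I interferon. Whether ISGF3 regulates each of them in these cells was not tested. RefSeq promoters of assembly GRCm38.p6, the assembly known as mm10, from 250 bases before to 50 bases after each annotated start, matched 31 of the 42 members. Usp18, Mx1, Mx2, Oas2, Dhx58, Zbp1, Parp9, Parp14, Ifi204, Rtp4 and Tor3a had no entry. The response element was searched as GAAANNGAAA on both strands, with overlapping matches allowed, and 15 of the 31 members (48.4%) held it. The same letters were present in 3.99% of 27025 genes, in 3.44% of 32851 promoters, and in 8.89% of 720 other LPS-induced genes, which are non-members with at least 5 FPKM in some library and a mean log2 LPS ratio over both genotypes of at least 1. The next lines give windows around the matches, each 5′ to 3′ on the gene's strand. Isg15, Ifit1, Rsad2 and Ifi205 are 4 members with a high LPS response or level. Oas1g, Oas3 and Bst2 are 3 members with a low LPS response in control, although the level of Bst2 was high. Ifnb1 is shown as well. Capitals mark the letters of matches to this strict form, which read TTTC where the match lies on the other strand. The Ifnb1 window is the exception, and its capitals are described below.
Isg15: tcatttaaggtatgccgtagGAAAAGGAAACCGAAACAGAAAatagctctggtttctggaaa
Ifit1: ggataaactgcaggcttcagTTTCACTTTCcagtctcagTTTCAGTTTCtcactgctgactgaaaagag
Rsad2: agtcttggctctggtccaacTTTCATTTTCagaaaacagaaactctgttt
Ifi205: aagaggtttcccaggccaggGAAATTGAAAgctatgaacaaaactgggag
Oas1g: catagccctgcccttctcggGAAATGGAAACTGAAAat
Oas3: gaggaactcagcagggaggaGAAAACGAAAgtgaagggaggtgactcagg
Bst2: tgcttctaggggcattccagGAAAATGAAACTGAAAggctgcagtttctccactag
Ifnb1: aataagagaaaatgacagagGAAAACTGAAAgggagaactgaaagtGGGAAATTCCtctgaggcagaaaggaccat

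The windows lie upstream of the annotated starts, and no exon of the GENCODE vM21 annotation overlaps any of them. The Isg15 window is chr4:156200855-156200916 on the minus strand, bases -98 to -37 from the start, and holds 3 overlapping matches. The Ifit1 window is chr19:34640765-34640833 on the plus strand, bases -124 to -56, holds 2 matches and lies within the spans of the neighbouring genes Ifit1bl1 and Ifit1bl2. The Rsad2 window is chr12:26456543-26456592 on the minus strand (-140 to -91), and that of Ifi205 is chr1:174031860-174031909 on the minus strand (-154 to -105). Those of Oas1g, chr5:120887614-120887651 (-38 to -1), Oas3, chr5:120777705-120777754 (-95 to -46), and Bst2, chr8:71537567-71537622 (-150 to -95), are on the minus strand as well. The strict form had no match in the Ifnb1 promoter. The Ifnb1 window, chr4:88522881-88522956 on the minus strand (-162 to -87), shows a match to a looser form with 3 bases between the GAAA units. It also shows a match to the kappa B consensus, the site of NF-kappa B. Matches of these kinds are in capitals for Ifnb1 only. Left in lower case are a kappa B match in the Bst2 window (-142 to -133) and a looser match in the Rsad2 window (-109 to -99).

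**Figure D1:**
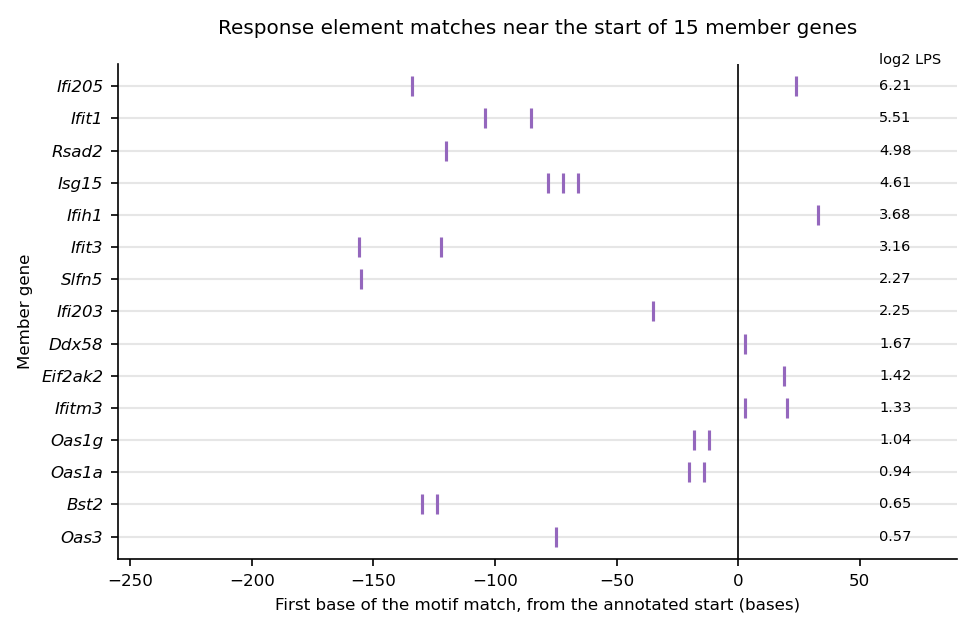
Positions of the response element matches (x axis, first base of the match counted from the annotated start, in bases) in the 15 member genes that held one (y axis), with each match as 1 tick, a line at the start and the log2 LPS ratio in control printed at the right. The printed windows of Isg15, from base -98, and Bst2, from base -150, hold 3 and 2 of these matches.

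Strong and weak responders both held the element. It was present in 8 of the 17 matched members whose LPS response in control cells was 4-fold or more and in 7 of the 14 with a smaller one. With 1 to 3 bases allowed between the GAAA units, 21 of 31 members (67.7%) and 9.91% of all genes had a match. The Ets-IRF composite element GGAANNGAAA, a kind of site at which Ets factors such as PU.1 bind with an IRF, was present in the promoters of Dtx3l, Ifi44 and Sp100, 9.68% of the 31 members, and in 3.16% of all genes. It can overlap the response element. The kappa B consensus, searched after results had been seen, was present in 9 of 31 members (29.0%), in 9.55% of all genes and in 18.1% of the other LPS-induced genes. Each match is a description of the letters in these windows and shows no binding.

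Depth and purity bear on every value. The spacing of low FPKM values gave 15.65 (control) and 12.95 (knockout) fragments per kilobase for each FPKM without LPS, and 10.61 and 8.08 with LPS, so 1 fragment in a 2 kb gene was worth 0.0357 to 0.0692 FPKM. The FPKM of all genes summed to 500123, 525348, 736818 and 819232 in the same order. From these depths each FPKM ratio below has an exact 95% Clopper-Pearson interval that covers counting error only, not differences between cultures or preparations. Spic stood at 53.1 and 406 FPKM in the control libraries and at 14.98 and 80.8 in the knockout libraries, without and with LPS. It was thus lower in knockout in each LPS state but not absent, and higher in knockout with LPS than in control without it. The deleted part of the gene is not known here, so these levels do not check the deletion itself.

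All 8 macrophage markers in the files were above 5 FPKM in each library, and the markers of dendritic, B, T and NK cells were low. Markers of plasmacytoid dendritic cells, a main source of interferon alpha in the body, summed to between 8.29 and 12.97 FPKM, with Siglech and Ly6d at 0 in all 4. Those of conventional dendritic cells summed to at most 0.715 FPKM, of B cells to at most 2.197 and of T and NK cells to at most 0.272, with Cd209a and Cd3e at 0. Neutrophil markers summed to 41.4 and 242 FPKM in control and to 31.8 and 131 in knockout, without and with LPS. Most of the rise of these sums with LPS was S100a8, at 20.2 and 213.7 FPKM in control and 18.5 and 113.8 in knockout. S100a9 stood at 16.7 and 19.9 FPKM in control and at 9.94 and 11.96 in knockout. The remaining neutrophil markers were under 5 FPKM in each library, so the sums do not measure neutrophil content. Markers of stroma and endothelium differed by genotype: all 6 that passed the minimum, of 8 in the list, were at least 1.5-fold lower in knockout in both LPS states, with sums of 582 and 612 FPKM in control and 303 and 345 in knockout. In these bulk libraries, fewer cells of a type and less RNA per cell cannot be told apart.

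LPS went with a higher level of every one of the 42 members in both genotypes. Of all genes that passed the minimum, 57.1% in control and 57.2% in knockout were above 0 as well. The members made up 0.308% (control) and 0.425% (knockout) of all FPKM without LPS, and 1.32% and 1.71% with LPS. Their median level was 16.6, 23.8, 87.8 and 134 FPKM in the same order. Ifnb1 was the lowest member in each library. The highest was Ifitm3 without LPS and Isg15 with LPS in both genotypes. The number of members at 100 FPKM or more was 2 without LPS in either genotype, Bst2 and Ifitm3, and 19 in control and 25 in knockout with LPS.

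**Figure D2:**
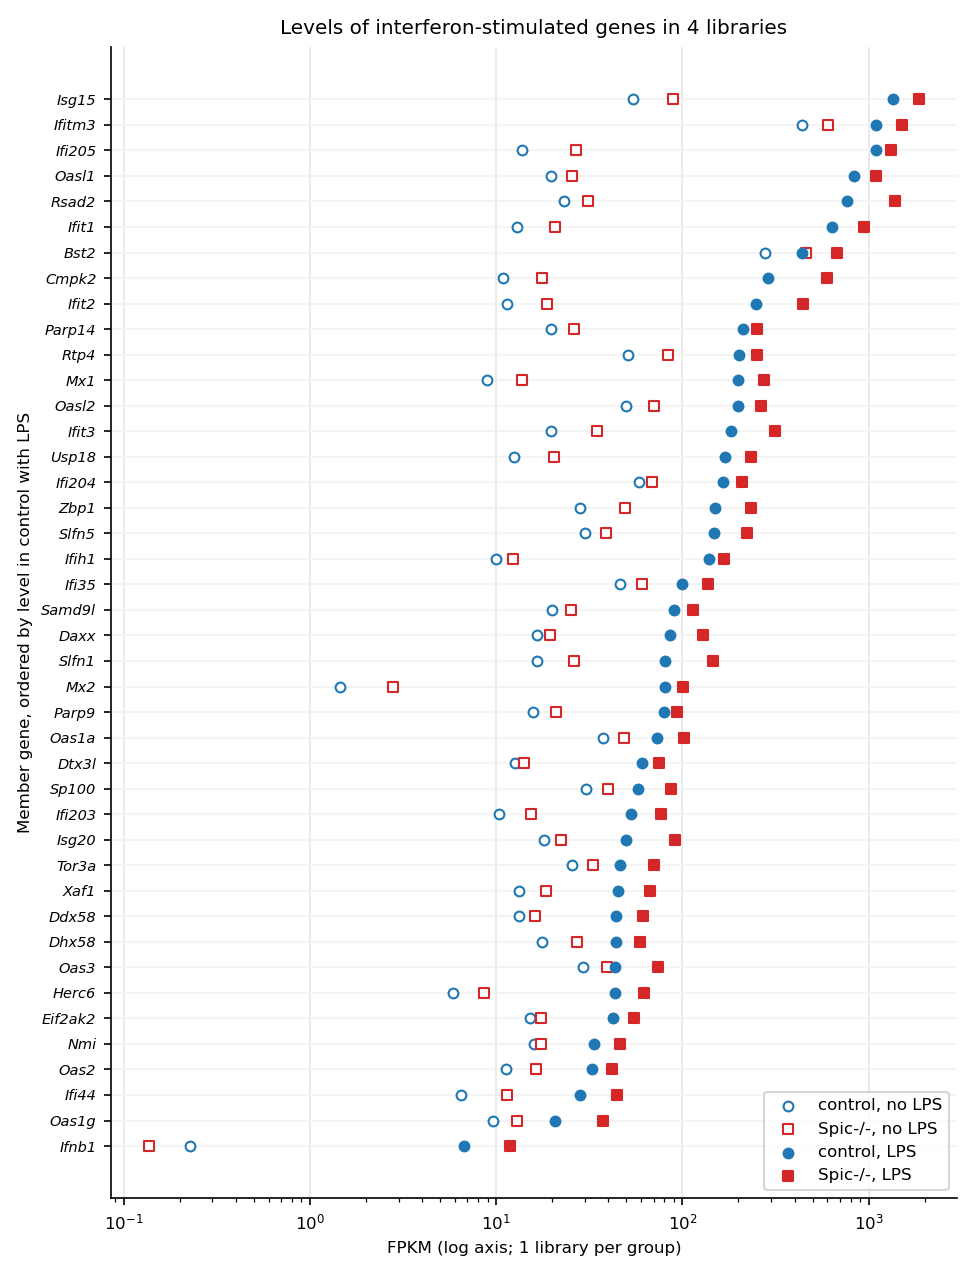
Level of each of the 42 member genes (y axis, ordered by level in control with LPS) in the 4 libraries (x axis, FPKM on a log axis, 1 point per library). The medians were 16.6 and 23.8 FPKM without LPS and 87.8 and 134 with LPS, in control and knockout, and Ifnb1 is the lowest gene in each library.

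In control macrophages, 37 of 42 members had a 2-fold or higher and 41 a 1.5-fold or higher level with LPS, on the log2 scale of FPKM + 1 that is used for all ratios called log2 here. The background was 12.3% of 8050 genes at 2-fold and 23.1% at 1.5-fold. The median member ratio was 2.198, against 0.11 over all genes that passed the minimum. The median of the other LPS-induced genes was 1.71. Those genes were chosen by their LPS ratios, so that value is no reference for the size of the member response. All 42 counting intervals lay above 1, as did those of 47.2% of 7328 genes with an annotated length. The fold ratio of low genes is understated on this scale.

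In knockout macrophages, 40 of 42 members were at least 2-fold and 41 at least 1.5-fold higher with LPS. The background was 13.7% of 8098 genes at 2-fold and 25.4% at 1.5-fold. The median was 2.18, against 0.12 over all genes. It was 1.82 over the other LPS-induced genes, with the same limit as in control. The intervals of all 42 lay above 1 here too, with a background of 47.1% of 7374 genes. Scaling the libraries by median ratios or by the upper quartile moved the median of all genes in control from 0.11 to -0.05 and -0.28 and in knockout from 0.12 to -0.04 and -0.29. It lowered the ratios of members and of other genes by about the same amount. No member's ratio had another sign under either scaling.

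Ifnb1 (chr4:88522025-88522794, minus strand), the gene of the ligand at the head of the pathway, stood at 0.228 (control) and 0.137 FPKM (knockout) without LPS, and at 6.71 and 11.9 with LPS. It was low in both libraries without LPS and above 5 FPKM in both with it. These levels correspond to about 2, 1, 38 and 52 fragments in that order. The FPKM ratio with to without LPS was 29.5 in control (interval 7.24 to 240.0) and 86.6 in knockout (14.3 to 3360.0), and the intervals overlap widely. Of the other interferon genes listed, 16 had a row in the files and 15 of them, 11 of the alpha family, Ifnab, Ifne, Ifnk and Ifng, were listed at 0 in all 4 libraries. Ifnz had 0.123 FPKM in knockout without LPS and 0 elsewhere.

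The IFIT proteins bind foreign RNA ends and block translation, and their genes lie together on chromosome 19. Ifit1 stood at 12.95 (control) and 20.8 FPKM (knockout) without LPS, and at 636 and 945 with LPS. The corresponding levels of Ifit2 were 11.4, 18.7, 248 and 442 FPKM, and those of Ifit3 were 19.6, 35.0, 183 and 313 FPKM. For all 3 genes both libraries with LPS were above both without, and knockout was above control in each LPS state. The log2 LPS ratio in control ran from 3.16 for Ifit3 to 5.51 for Ifit1, the second highest of the 42 members, with an FPKM ratio of 49.1 (44.9 to 53.8).

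ISG15 is conjugated to proteins by a set of enzymes that includes HERC ligases, and USP18 removes it and also restrains IFNAR signalling. Isg15 stood at 54.4 (control) and 88.7 FPKM (knockout) without LPS, and at 1349 and 1853 with LPS, where it was the highest member. Usp18 stood at 12.5 and 20.4 FPKM without LPS and at 170.0 and 233 with it. Herc6 stood at 5.85 and 8.56 FPKM without LPS and at 43.4 and 62.3 with it. The log2 LPS ratios of these 3 genes were 4.61, 3.66 and 2.70 in control and 4.37, 3.45 and 2.73 in knockout.

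The MX GTPases block virus particles, and Mx1 and Mx2 are annotated as transcribed pseudogenes in the RefSeq assembly used here. Mx1 stood at 8.98 (control) and 13.7 FPKM (knockout) without LPS, and at 199 and 275 with LPS. Mx2 stood at 1.44 and 2.79 FPKM without LPS and at 80.6 and 100.5 with it. Mx2 thus had a log2 LPS ratio of 5.06 in control, among the 5 highest, from a level under 5 FPKM. Its FPKM ratio was 55.8 (42.1 to 75.3) in control and 36 (28.7 to 45.5) in knockout.

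Rsad2 encodes viperin, an enzyme that makes a chain-terminating nucleotide from the product of its neighbour Cmpk2, a nucleotide kinase gene, and the pair lie side by side, at chr12:26442743-26456452 and chr12:26469117-26479837. Rsad2 stood at 23.2 (control) and 31.1 FPKM (knockout) without LPS, and at 765 and 1384 with LPS. Cmpk2 stood at 10.9 and 17.7 FPKM without LPS and at 289.5 and 594 with it. Both were highest in the knockout library with LPS. The log2 LPS ratio was 4.98 in control and 5.43 in knockout for Rsad2, and 4.61 and 4.99 for Cmpk2.

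The OAS enzymes make the messenger that switches on RNase L, and Oasl1 and Oasl2 are relatives. The 6 genes in this group ranged over nearly the whole span of LPS ratios. Oasl1 stood at 19.7 (control) and 25.6 FPKM (knockout) without LPS, and at 829.5 and 1097 with LPS, with log2 ratios of 5.33 and 5.36. Oas3 stood at 29.2 and 39.4 FPKM without LPS and at 43.6 and 74.0 with it, and its control ratio of 0.57 was the lowest of the 42. Oas1a stood at 37.4 and 48.5 FPKM without LPS and at 72.7 and 102 with it. It was just under 2-fold in control, at 0.94, and just over it in knockout, at 1.06. Oas1g, Oas2 and Oasl2 lay between, with control ratios of 1.04, 1.45 and 1.97. Oas1a and Oas1g are close copies that can share reads, so their separate values are uncertain.

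Among the sensors, Ifih1, which encodes the long RNA sensor MDA5, stood at 9.94 (control) and 12.3 FPKM (knockout) without LPS, and at 139 and 167 with LPS. Its log2 LPS ratios of 3.68 and 3.66 were well above those of the related Ddx58, the gene of RIG-I, at 1.67 and 1.86. Dhx58, which encodes the regulator LGP2, had 1.27 and 1.10, the latter among the 5 lowest in knockout. Eif2ak2, which encodes PKR, a kinase that halts translation on double-stranded RNA, had 1.42 and 1.61. Zbp1, the gene of a sensor of Z-form nucleic acid, stood at 28.2 and 49.3 FPKM without LPS and at 149 and 234 with it. The exonuclease gene Isg20 stood at 18.0 and 22.3 FPKM without LPS and at 49.96 and 90.9 with it.

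Ifi205 (chr1:174011998-174031755), which encodes a member of the PYHIN family of DNA-binding proteins, had the highest LPS ratio in both genotypes. It stood at 13.8 (control) and 26.8 FPKM (knockout) without LPS, and at 1097 and 1318 with LPS. The FPKM ratio was 79.5 (70.9 to 89.3) in control and 49.1 (44.9 to 53.8) in knockout, and those intervals do not overlap. Its neighbours Ifi203 and Ifi204 had log2 ratios of 2.25 and 1.47 in control. These PYHIN genes are similar in sequence, and the sources used here do not say how reads that match several of them were shared.

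The remaining members spanned a narrower range. Bst2, which encodes tetherin, a protein that holds budding virus at the cell surface, stood at 278 (control) and 462 FPKM (knockout) without LPS, and at 437 and 673 with LPS. Its LPS ratio was the lowest in knockout, at 0.54, and the second lowest in control, at 0.65. The knockout level of Bst2 without LPS was above Bst2 in control with LPS. Ifitm3, whose product blocks virus entry, stood at 436 and 608 FPKM without LPS and at 1098 and 1505 with it. Parp14, an ADP-ribosyltransferase gene, had log2 LPS ratios of 3.36 in control and 3.23 in knockout. Parp9 had 2.27 and 2.11, and Dtx3l, whose product is the ubiquitin ligase partner of PARP9, had 2.17 and 2.32. The annotated spans of Parp9 and Dtx3l overlap on chromosome 16, and the sources used here do not say whether counting used strand.

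Slfn1 and Slfn5, genes of the Schlafen family, had control ratios of 2.22 and 2.27. The binding partners Ifi35 and Nmi had 1.08 and 1.03, and Nmi was the member just past 2-fold. The nuclear body gene Sp100 had 0.90 and Daxx, which encodes a histone chaperone of the same bodies, 2.29. Samd9l, Ifi44, Rtp4, Xaf1 and Tor3a had 2.13, 1.97, 1.95, 1.69 and 0.84. The 5 members under 2-fold in control were thus Oas3, Bst2, Tor3a, Sp100 and Oas1a. In knockout the 5 lowest were Bst2, Oas3, Oas1a, Tor3a and Dhx58, and 2 of them, Bst2 and Oas3 (0.89), were under 2-fold.

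The LPS ratios of the 2 genotypes, which share no library, ran closely together over the members (Pearson's r = 0.984, Spearman's rho = 0.979, n = 42 genes). Over all 7876 genes that passed the minimum in both pairs they were 0.951 and 0.962, and genes of 1 library are not independent replicates. The difference of the log2 LPS ratios, knockout minus control, had a median of 0.03 over the members, against 0.01 over all genes, and its sign turned under upper-quartile scaling, to -0.0083. It was above 0 for 23 of 42 members, next to a background of 52.8% of 8272 genes. Its ends were Ifi205 at -0.65 and Ifnb1 at 0.85.

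By counting error alone, 33 of 42 members had overlapping intervals of the LPS ratio in the 2 genotypes. The knockout interval lay above the control interval for 6, Isg20, Oas3, Rsad2, Cmpk2, Slfn5 and Daxx, and below it for 3, Parp14, Ifi205 and Rtp4. Of 7515 genes with a length, 5.71% lay above and 3.55% below, and intervals are narrower for genes with more fragments. For Isg20 the FPKM ratio was 2.77 (2.31 to 3.35) in control and 4.07 (3.42 to 4.85) in knockout. For Rtp4, a chaperone gene, it was 3.93 (3.64 to 4.24) in control and 3.02 (2.82 to 3.23) in knockout.

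**Figure D3:**
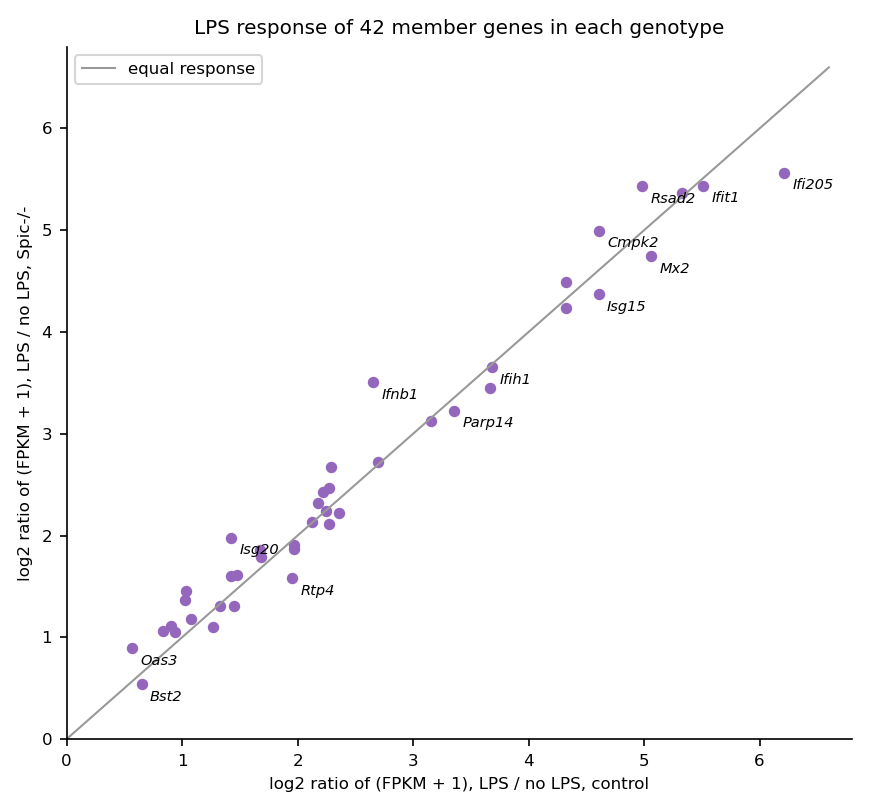
LPS response of the 42 member genes in control (x axis) and Spic-/- macrophages (y axis), each as the log2 ratio of FPKM + 1 with to without LPS, with 1 point per gene and a line of equal response. The points follow the line from Oas3 and Bst2 at the low end to Ifi205 at the high end, with 23 of 42 above it.

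Without LPS, knockout macrophages had higher levels than control for all 40 members that passed the minimum (Ifnb1 and Mx2 did not). The background for a ratio above 0 was 68.9% of 7762 genes. At 1.5-fold the count was 13 of 40 members (32.5%), against a background of 1.75% and against 7.03% of 725 other LPS-induced genes. Only the members were left out of that last set, so it includes interferon-stimulated genes of the wider list below, such as Slfn2 and Trex1. At 2-fold it was 0 of 40, against a background of 0.490%. The median member ratio was 0.44, with 0.07 over all genes and 0.15 over the other LPS-induced genes, and the lowest was Nmi at 0.12.

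The 5 highest members without LPS were Ifi205 (0.91), Ifit3 (0.80), Zbp1 (0.79), Bst2 (0.73) and Ifi44 (0.73), all from the levels given above except Ifi44. Ifi44, an interferon target whose protein is linked to reduced cell growth, stood at 6.49 (control) and 11.4 FPKM (knockout). The FPKM ratio of Ifi205 was 1.95 (1.68 to 2.25) and that of Bst2 was 1.66 (1.58 to 1.75). The others at 1.5-fold or more were Rtp4, Isg15, Ifit2, Usp18, Cmpk2, Ifit1, Slfn1 and Dhx58. Dhx58 was just inside 1.5-fold, at 0.60, and Mx1 just outside it, at 0.56.

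At the low end without LPS stood Nmi (0.12), Dtx3l (0.15), Eif2ak2 (0.18), Daxx (0.21) and Ifi204 (0.22). Nmi stood at 16.002 (control) and 17.4 FPKM (knockout), and the interval of its FPKM ratio, 0.903 to 1.32, held 1. That of Ifnb1, at 0.604 (0.0102 to 11.6), held 1 as well, and a difference was not detectable at this depth. The intervals of the other 40 members lay above 1, with a background of 28.8% of 7064 genes. All 3 IFIT genes and 2 of the 3 ISG15 system genes were at least 1.5-fold higher, and none of the 6 OAS genes was, with OAS ratios from 0.37 to 0.50.

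With LPS, all 42 members were higher in knockout than in control. The background for a ratio above 0 was 68.1% of 7509 genes, and 83.2% of 1012 other LPS-induced genes. At 1.5-fold the count was 15 of 42 members (35.7%), against a background of 2.86% and against 11.0% of the other LPS-induced genes. As without LPS, those include interferon-stimulated genes of the wider list below. At 2-fold it was 1 of 42, Cmpk2, against a background of 0.493%. The median was 0.48, with 0.09 over all genes and 0.22 over the other LPS-induced genes.

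The 5 highest members with LPS were Cmpk2 (1.03), Rsad2 (0.85), Isg20 (0.85), Slfn1 (0.83) and Ifit2 (0.83). The FPKM ratio was 2.05 (2 to 2.11) for Cmpk2 and 1.81 (1.78 to 1.84) for Rsad2. Slfn1 stood at 81.1 (control) and 145 FPKM (knockout). Oas1g, Ifit3, Oas3, Ifnb1, Zbp1, Ifi44, Bst2, Tor3a, Daxx and Sp100 followed at 1.5-fold or more. For Ifnb1 the ratio was 1.77 (1.16 to 2.81) at 6.71 and 11.9 FPKM. Sp100 was just inside 1.5-fold, at 0.59, and Slfn5 just outside it, at 0.57.

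At the low end with LPS stood Parp9 (0.23), Parp14 (0.26), Ifih1 (0.26), Ifi205 (0.27) and Dtx3l (0.30). The 3 genes of the PARP group were thus all among the 5 lowest. Parp9 stood at 79.8 (control) and 94.0 FPKM (knockout), and Parp14 at 211 and 252. All 42 counting intervals lay above 1, the lowest ratio being 1.18 (1.11 to 1.25) for Parp9, with a background of 34.3% of 6844 genes.

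**Figure D4:**
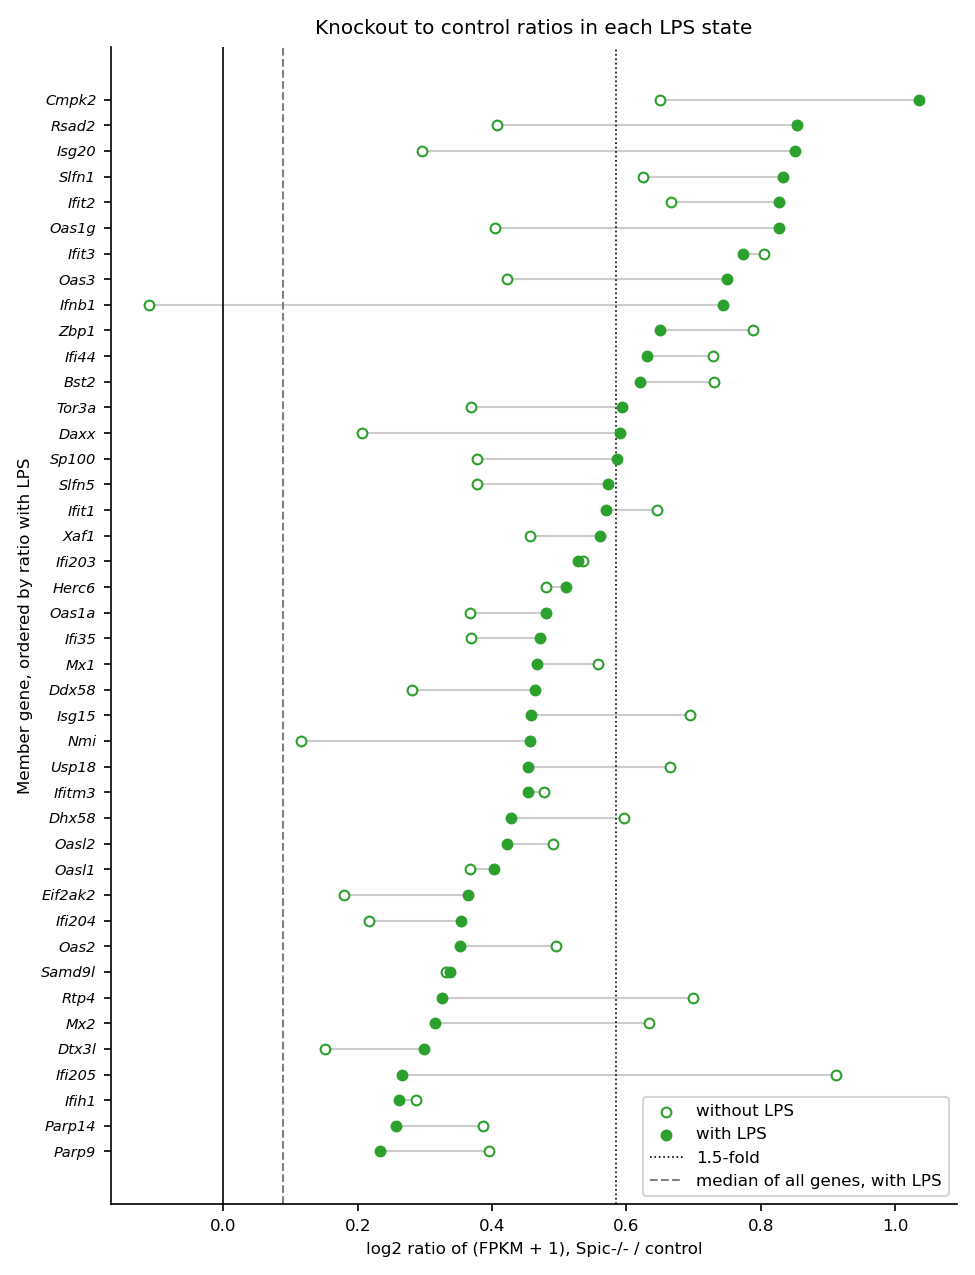
Knockout to control log2 ratio of FPKM + 1 (x axis) for each member gene (y axis, ordered by ratio with LPS), without LPS (open points) and with LPS (filled points), with lines at 0, at 1.5-fold and at the median of all genes with LPS. The filled points run from 0.23 for Parp9 to 1.03 for Cmpk2, and among the open points Ifnb1, under the minimum like Mx2, is the one below 0.

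The size of these counts depended on scaling. With median-ratio and upper-quartile scaling the members at 1.5-fold with LPS numbered 9 in both, against 1.89% and 1.61% of all genes. Cmpk2 was under 2-fold in both. Without LPS the count was 11 and 8, against 1.37% and 1.18% of all genes. With a pseudocount of 5 FPKM it was 6 without LPS, against 1.04%. The share of all genes thus fell as well. With LPS the member median lay 0.387 above that of all genes, and 0.384 and 0.382 above it with the scalings. All 40 and all 42 members stayed above 0 in these settings.

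Markers of cell types moved with genotype in the same pairs of libraries. The macrophage markers, compared after results had been seen, had a median knockout to control ratio of 0.27 without LPS, with 6 of 8 above 0, and of 0.26 with LPS, with 7 of 8 above 0, and Lyz2, the lysozyme gene, stood at -0.66 and -0.72. The macrophage markers summed to 8165 (control) and 6282 FPKM (knockout) without LPS and to 10822 and 9526 with LPS. Lyz2 alone stood at 6340 and 4014 FPKM without LPS and at 5620 and 3419 with LPS. It sets the direction of these sums, and without it they are higher in knockout in both LPS states. The marker median was passed by 35 of 40 members without LPS and by 39 of 42 with LPS. The member median lay 0.17 and 0.21 above it. Single markers reached the range of the members. The highest was Cd14 without LPS, at 1.03 and above every member, and Mertk with LPS, at 0.45. The stroma markers had medians of -0.80 and -0.69. Their part in the member ratios was not tested.

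**Figure D5:**
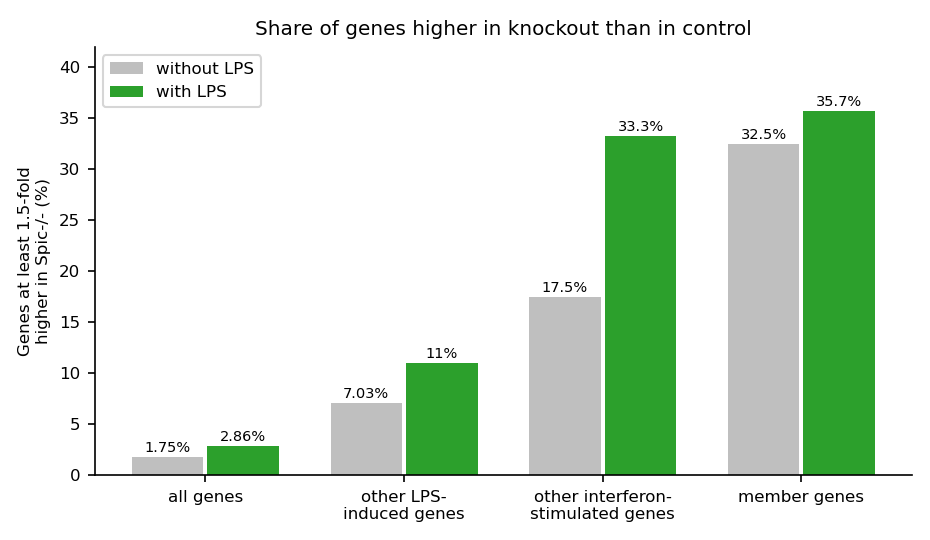
Share of genes at least 1.5-fold higher in Spic-/- than in control macrophages (y axis, percent) in 4 sets of genes (x axis), without LPS and with LPS as separate bars. The member bars stand at 32.5% and 35.7% and those of all genes at 1.75% and 2.86%.

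The genotype ratios without and with LPS, which share no library, had a Pearson's r of 0.244 and a Spearman's rho of 0.269 over 40 members. Over all 6999 genes they were 0.489 and 0.452. Of the 40 members that passed in both states, 13 were at least 1.5-fold higher without LPS and 14 with LPS, and 7 in both, or 53.8% of those without LPS and 7 of the 14 with it. Over the 6999 genes the corresponding shares were 44.7% of 123 and 38.2% of 144. The 7 members were Bst2, Cmpk2, Ifi44, Ifit2, Ifit3, Slfn1 and Zbp1.

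Counting intervals of the genotype ratio did not overlap between the LPS states for 11 of 42 members. On the log2 scale, the change of this ratio with LPS is the same quantity as the difference of LPS ratios given above. It comes from the same 4 libraries, so genes named in both places are no separate result. The interval with LPS lay above that without LPS for 6, Isg20, Oas3, Rsad2, Cmpk2, Slfn5 and Daxx, and below it for 5, Isg15, Mx2, Parp14, Ifi205 and Rtp4. Of 7509 genes with a length, 5.86% lay above and 3.76% below. For Ifi205 the FPKM ratio was 1.95 (1.68 to 2.25) without LPS and 1.20 (1.18 to 1.23) with LPS. For Isg20 it was 1.24 (1.01 to 1.53) without and 1.82 (1.58 to 2.10) with LPS. For Rsad2 it was 1.34 (1.24 to 1.45) without and 1.81 (1.78 to 1.84) with LPS. Without replicate libraries, these differences have no error beyond counting.

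The other genes of the pathway were read in the same way from lists by role. Of 16 genes that take part in the induction of Ifnb1, by way of Toll-like receptor 4 or of other sensors, 5 had a 2-fold or higher level with LPS in each genotype, led by the LPS co-receptor gene Cd14 (4.94 in control, 4.13 in knockout) and Irf1 (3.21 in both), with medians of 0.49 and 0.56. In each genotype 4 of the 16 were at least 1.5-fold lower with LPS, namely Tlr4 (-0.64 in control, -0.79 in knockout), Irf8 (-0.95 and -0.91), Mavs (-0.96 and -0.76) and Tmem173, the gene of STING (-0.62 and -0.66), which are named because of their values. By genotype, 1 of 15 passing genes was at least 1.5-fold higher without LPS, Cd14 (1.03), and 2 of 16 with LPS, Tlr3 (0.64) and Irf7 (0.60). Irf7, which encodes the factor that amplifies interferon production, stood at 259 and 365 FPKM without LPS and at 361 and 546 with LPS, in control and knockout. Irf3, by contrast, stood at 19.5 and 21.2 FPKM without LPS and at 20.9 and 22.006 with it, so all 4 libraries were close.

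Among the 7 genes of the receptor and its signalling chain, Stat2 (1.95 in control, 2.16 in knockout) and Tyk2 (1.28 and 1.08) had a 2-fold or higher level with LPS in both genotypes. None of the 7 was 1.5-fold different by genotype, and the medians were 0.31 without LPS and 0.11 with LPS. Of 8 inhibitors of the chain, 4 in each genotype were at least 2-fold higher with LPS: Socs3 (8.26 and 7.53), Socs1 (4.90 and 4.86), Ptpn2 (1.81 and 1.83) and Ptpn1 (1.70 and 1.51). None was 1.5-fold different by genotype, and with LPS Socs3 and Ptpn1 stood lower in knockout, at -0.27 and -0.26.

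A wider list of 60 other interferon-stimulated genes, of which 53 had a row and 47 reached 1 FPKM, showed the same directions in most of its genes. With LPS, 29 of 44 in control and 32 of 45 in knockout were at least 2-fold higher, with medians of 1.43 and 1.68. By genotype, 7 of 40 (17.5%) were at least 1.5-fold higher without LPS and 15 of 45 (33.3%) with LPS, with medians of 0.29 and 0.48. The genotype ratios were led by Ms4a4c (1.004) and Slfn4 (0.91) without LPS and by Gm14446 (1.14), Apol9a (1.12), Apol9b (1.06) and Slfn4 (1.05) with LPS. Ifi27l2a, in contrast to every member, was lower with LPS in both genotypes, at 353 and 281 FPKM in control and 595 and 479 in knockout. Ifitm6 was lower with LPS as well, at 5.38 and 3.40 FPKM in control and 9.98 and 5.96 in knockout.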

How the data were processed

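mRNA libraries (TruSeq stranded mRNA kit, per the labels' protocols) of 4 macrophage cultures were sequenced, 1 per group. The authors deposited FPKM per gene and library, made on mm10 with Cuffnorm 2.2.1, TopHat2 2.0.13, SAMtools 0.1.19 and Bowtie2 2.2.3, per the submitters' processing notes; the annotation and settings are not given in the sources used here.

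Samples were grouped by genotype and LPS treatment from the labels. From the deposited FPKM values, log2 ratios of FPKM + 1 were computed for genes that reached 5 FPKM in either of the 2 libraries compared, and counted at 2-fold and 1.5-fold. Other LPS-induced genes are the 1012 non-members with at least 5 FPKM in some library and a mean log2 LPS ratio of at least 1 over both genotypes. Interferon-stimulated genes that are not members were kept in this set, also for the motif shares. Depth was estimated from the spacing of values under 0.3 FPKM in genes with 1 transcript in the GENCODE vM21 annotation, and intervals of FPKM ratios are exact 95% Clopper-Pearson intervals, compared over all genes with a length in that annotation. Depth recovery and counts were checked on simulated data. Named were the 5 highest and 5 lowest member ratios per comparison, members past 1.5-fold in both LPS states, Ifnb1 and up to 4 genes per other list. Alternatives were pseudocounts of 0.1 and 5, minimums of 1, 20 and none, median-ratio and upper-quartile scaling, a 3-fold threshold and a looser motif. Members and lists were chosen with earlier results of these data known. Python 3.11.15, pandas 2.3.3, NumPy 2.4.6, SciPy 1.17.1 and matplotlib 3.10.9 were used. Single values of some genes on the other lists are not reported here.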

Additional observations from a re-analysis of the deposited data

Results flagged for a closer look

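Ifnb1 was singled out because its knockout to control log2 ratio had opposite signs in the LPS states, -0.11 without LPS and 0.74 with LPS, a difference of 0.85 that was not tested. The ratio without LPS rests on about 2 fragments in control and 1 in knockout, and its counting interval, 0.0102 to 11.6 as an FPKM ratio, includes that found with LPS, 1.16 to 2.81.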

How the results depend on the processing

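With 1 library per group, no replicate could be left out and no spread between cultures is known. No member's log2 ratio had another sign under any pseudocount or scaling. Of the summary values recomputed, 109 stayed close to those reported, 14 did not and 1 turned sign. With a pseudocount of 5 FPKM the median LPS ratio was 1.90 in control and 1.95 in knockout, and 6 members were at least 1.5-fold higher in knockout without LPS. With median-ratio scaling the LPS medians were 2.05 and 2.01, and with LPS 9 members were at least 1.5-fold and 0 at least 2-fold higher in knockout. With upper-quartile scaling the LPS medians were 1.83 and 1.77, the 1.5-fold counts 8 without and 9 with LPS, the 2-fold count with LPS 0, the genotype median with LPS 0.36, and the median difference of LPS responses -0.0083 in place of 0.03. At a 3-fold threshold 0 members were higher in knockout with LPS. Both scalings lower the LPS libraries against the others, and the knockout library against control in each LPS state. The median-ratio divisors were 0.9275 (control) and 0.9673 (knockout) without LPS, and 1.032 and 1.086 with LPS. Those of the upper quartile were 0.8456, 0.8995, 1.1 and 1.195 in that order. The shares of all genes at 1.5-fold by genotype in these settings are given with the genotype results. Otherwise the cause was not tested. Depth limits Ifnb1 and, less so, Mx2 without LPS.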
